A study of Arabidopsis thaliana with 12 samples.

Results

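Class III peroxidases are secreted plant haem enzymes, abbreviated PER here. The family was taken as 60 loci of a fixed list, and all 60 were among the 27416 targets measured in Arabidopsis thaliana. Members were chosen by locus, without a threshold on any measured value but with earlier results of these data known, and the same holds for the role lists below. The list does not hold every member of the family, and the others were not analysed here. The libraries came from roots labelled psp1, roots of wild type (WT), aerial parts labelled psp1 and aerial parts of WT, with 3 libraries in each of these 4 groups. The ecotype of all plants is labelled Columbia, and psp1 is a mutant of phosphoserine phosphatase, the last enzyme of the phosphorylated pathway of serine synthesis. All plants grew on vertical agar plates with diluted Murashige and Skoog medium and were collected at the end of the night, and each replicate was an independent biological one. The labels used here do not name the psp1 allele or any construct in the mutant.

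Class III peroxidases use hydrogen peroxide to oxidise phenols, which cross-links lignin, suberin and cell wall proteins. They can also produce reactive oxygen species, and such species loosen or stiffen the wall of growing cells. In roots, members of the family are known for the lignin of the Casparian strip in the endodermis, for xylem lignin, for the walls of root hairs and for the oxidative burst of defence.

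Total counts ran from 4191768 to 5873935 in psp1-labelled roots and from 7445059 to 9590308 in WT roots. They ran from 3627193 to 5815906 in the psp1-labelled aerial part and from 7302386 to 8958217 in the WT aerial part, so depth separated the genotypes in both organs. The mutated gene, PSP1 (AT1G18640), had 2331, 1144 and 883 counts in psp1-labelled aerial libraries and 661, 535 and 368 in WT aerial ones, which goes against the label (log2 fold change 2.29 ± 0.26 SE, edgeR exact test, adjusted p = 1.55e-22). In roots it had 667, 599 and 608 counts in psp1-labelled libraries and 1241, 1441 and 1352 in WT ones, at -0.40 ± 0.13, and was not called (edgeR exact test, adjusted p = 0.0276). The genotype is therefore given as labelled, and every direction below is that of the labels. The 5 leaf marker genes summed to between 367.4 and 564.4 TPM in psp1-labelled roots and between 698.6 and 725.8 TPM in WT roots, against 22420 to 29390 TPM and 27130 to 35350 TPM in the aerial parts labelled psp1 and WT. In roots 3 of these 5 leaf markers were called lower with the psp1 label, and of 3 root markers the nitrate transporter gene NRT2;1 was called higher and PYK10 and TIP2;3 lower. The part of these shifts in the peroxidase values was not tested. TPM is a level scaled for transcript length and for the library, and CPM is a count scaled to a fixed library total. Group values below are means ± SD or log2 fold changes ± SE with n = 3 per group, and a gene is called at an adjusted p under 0.01.

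Neighbouring members of the family can be nearly identical, which limits how reads are divided between them, so one stretch of the PER22 and PER23 pair is shown first. PER22 (AT2G38380; TAIR10.1 chromosome 2, 16076289 to 16078781, plus strand) and PER23 (AT2G38390; 16079679 to 16081671, plus strand) lie 897 bases apart and share 90.6% of 1050 coding bases. The sequences below are bases 93 to 167 of both coding sequences, 5′ to 3′, from RefSeq TAIR10.1, and capitals mark the 16 bases that differ.

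PER22: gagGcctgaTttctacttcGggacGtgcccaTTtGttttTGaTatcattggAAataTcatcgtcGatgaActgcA

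PER23: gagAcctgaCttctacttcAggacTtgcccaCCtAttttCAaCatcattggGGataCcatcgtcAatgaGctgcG

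Of the words of 31 bases in PER22 and in PER23, 91.2% occur in no other coding sequence, so most reads tell this pair apart. PER1 (AT1G05240) and PER2 (AT1G05250) are at the other extreme: their 978 coding bases are identical and no word is unique. The deposited counts of PER1 and PER2 were the same in every library and are 1 measurement, split evenly. The share of unique words was 75.9% for PER50 and PER51, 80.5% for PER37 and PER38, 82.7% for PER33, 82.1% for PER34, 84.1% for PER14 and 84.2% for PER15, and counts of these pairs are less certain. It was above 90% for 50 members.

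The family was mainly expressed in roots. Its summed level was 7232 to 7366 TPM in psp1-labelled roots and 5927 to 6275 TPM in WT roots, against 1254 to 2307 TPM in the psp1-labelled aerial part and 1171 to 1434 TPM in the WT aerial part. In psp1-labelled roots 38 members reached a mean of 10 TPM, and in WT roots 32 did. In the aerial part 10 did in psp1-labelled and 11 in WT libraries. PER13, PER36, which acts in seed coat mucilage release, and PER68 had 0 counts in all 12 libraries. At these depths 0 counts over a group allow up to 0.2 CPM in psp1-labelled roots, 0.115 in WT roots, 0.227 in the psp1-labelled aerial part and 0.122 in the WT aerial part, taking 3 counts over the group and counting error alone.

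**Figure D1:**
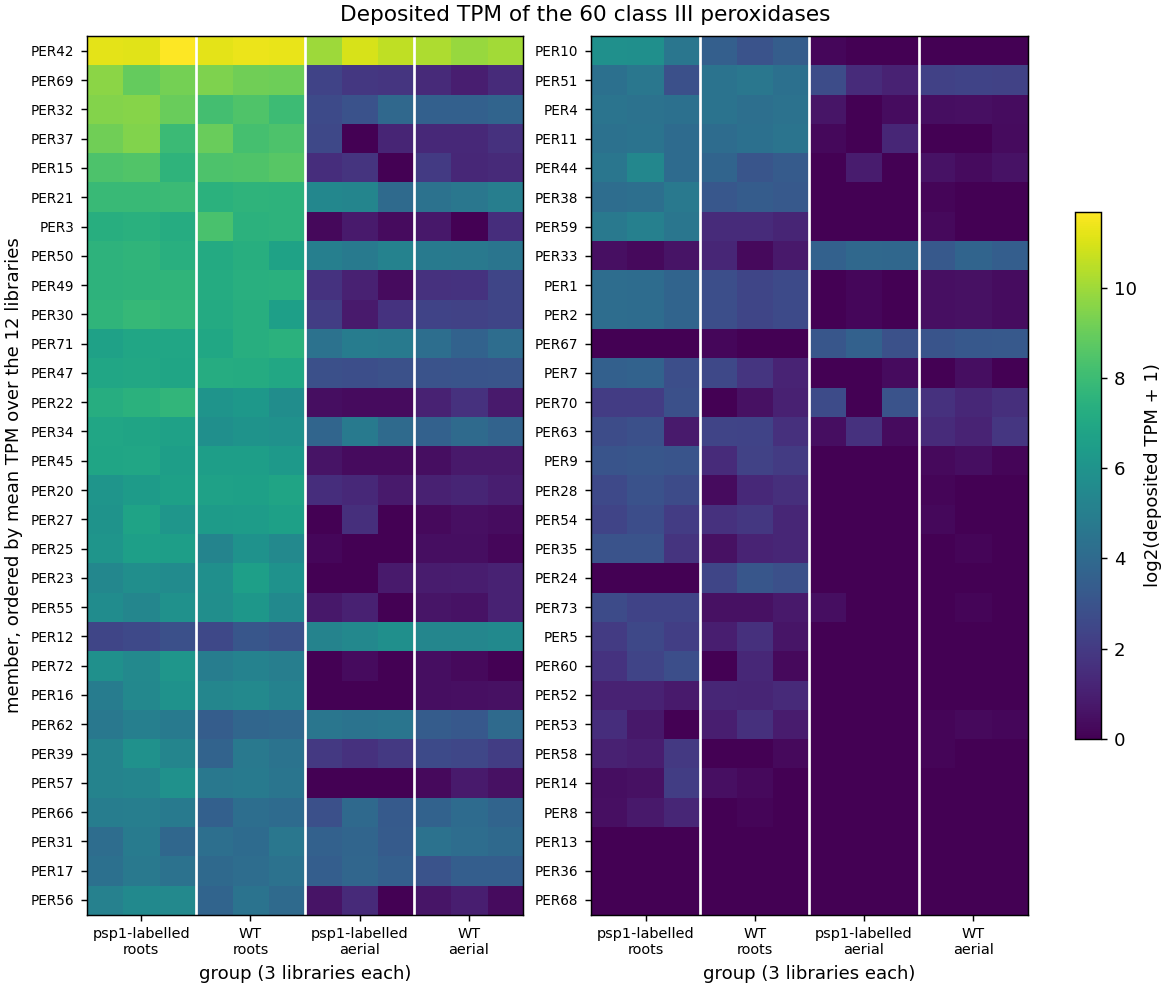
Heat map of the deposited level of each of the 60 members as log2(TPM + 1), with members down the page by their mean over 12 libraries and 3 libraries per group across it. PER42 is the brightest row in every library, and most other members are bright in the 6 root libraries and dark in the 6 aerial ones, with PER12, PER33 and PER67 the other way round.

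PER42 (AT4G21960, PRXR1; TAIR10.1 chromosome 4, 11646109 to 11648644, minus strand) had the highest level of the family in each group. Its level was 2640 ± 545 TPM in psp1-labelled roots, 2450 ± 115 TPM in WT roots, 1510 ± 514 TPM in the psp1-labelled aerial part and 1060 ± 136 TPM in the WT aerial part. It made up 36.2% of the family's summed TPM in psp1-labelled roots and 40.0% in WT roots, against 84.9% in the psp1-labelled aerial part and 81.4% in the WT aerial part. Without PER42 the summed level was 4654 ± 491 TPM in psp1-labelled roots and 3679 ± 213 TPM in WT roots, and 269.1 ± 14.4 TPM in the psp1-labelled and 242.9 ± 13.1 TPM in the WT aerial part.

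Below PER42 in roots stood PER32, PER69, PER37 and PER15, whose order differed by genotype. In psp1-labelled roots the levels were 658 ± 132 TPM for PER32, 625 ± 159 for PER69, 506 ± 232 for PER37 and 301 ± 92.8 for PER15. PER32, PER69 and PER37 were not apart beyond their spread there. In WT roots the levels were 601 ± 75.8 TPM for PER69, 380 ± 111 for PER37, 362 ± 29.6 for PER15 and 298 ± 50.2 for PER32, and the last 3 were not apart beyond their spread. PER21, PER30, PER49, PER50 and PER3 had 242 ± 4.6, 209 ± 14.4, 192 ± 6.38, 183 ± 15.2 and 159 ± 8.56 TPM in psp1-labelled roots, against 185 ± 8.48, 132 ± 33.8, 159 ± 11.4, 134 ± 25.9 and 228 ± 79.3 TPM in WT roots. These 5 and PER42, PER69, PER32, PER37 and PER15 were the 10 highest by mean over all libraries. In psp1-labelled roots alone PER22, at 178 ± 24.7 TPM, took the tenth rank, above PER3. In the aerial part the second rank belonged to PER12, at 44.9 ± 9.45 TPM in psp1-labelled and 41.9 ± 3.73 TPM in WT libraries.

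In roots, 26 members differed between psp1-labelled and WT libraries, 21 of them higher and 5 lower with the psp1 label. The members called higher included PER1, PER7, PER35, PER44, PER60, PER62 and PER73 of the root hair list, the endodermal genes PER39 and PER72, the oxidative burst gene PER34, and PER59, which was 14.9-fold higher. The members called lower were PER24, PER3, PER20, PER23 and PER71. PER24 had no count in psp1-labelled roots. The test covered 50 members: the other 10 had too few counts in roots, and 3 of those had none. Of those called higher, PER7, PER28, PER35, PER59, PER60, PER70 and PER73 would not have passed the filter on low counts by WT roots alone. PER24, called lower, would not have passed it by psp1-labelled roots alone. The direction of these members was partly set by that filter. Among all 17793 genes tested in roots, 8.72% were called higher and 9.1% lower, 17.8% in all, where 42.0% of the members tested were called higher and 10% lower. The median log2 fold change was 0.54 over the members tested and 0.01 over all genes. The members' median was not stable. It fell to 0.24 over 46 tested with all libraries thinned to equal depth and to 0.27 without WT root 3, with 0.01 over all genes in both. Without WT root 2 it was 0.65. With PER1 and PER2 taken as 1 measurement, 20 of 49 were called higher and 5 lower. In bulk libraries, more cells of a type and more RNA per cell cannot be told apart.

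The calls were made with the edgeR exact test with Benjamini-Hochberg adjustment over all genes. The quasi-likelihood test of edgeR called 11 members higher and 2 lower, and it called 2232 of all genes, against 3171 in the exact test. Under every alternative run 10 members were called: PER1, PER2, PER10, PER22, PER24, PER32, PER34, PER56, PER59 and PER73. Among these, PER1 and PER2 hold the same counts. Scaling by library totals moved the median of all genes in roots to 0.12. Then 24 members were called higher and 2 lower, and 3318 of all genes were called. With all libraries thinned to equal depth, 17 members were called higher and 4 lower, and 2764 of all genes were called.

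**Figure D2:**
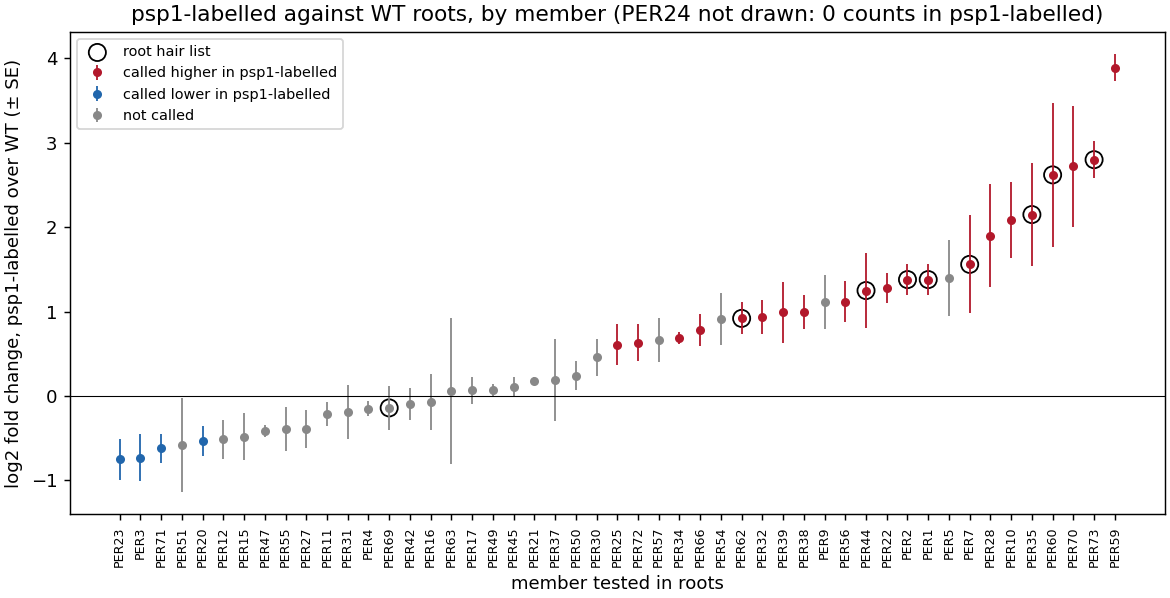
Log2 fold change of psp1-labelled over WT roots for the members tested, in rising order, with points for the estimates and bars for ± 1 SE. Red points are called higher, blue points called lower and grey points not called, and circles mark the root hair list; PER59 lies apart at 3.89, and PER69 is the single circled point near 0. PER24, with 0 counts in psp1-labelled roots, is not drawn.

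PER59 (AT5G19890; TAIR10.1 chromosome 5, 6724076 to 6725966, minus strand) had 22.8, 28.9 and 21.0 CPM in psp1-labelled roots and 1.61, 1.64 and 1.25 CPM in WT roots. These rest on 134, 142 and 88 counts in psp1-labelled libraries and 12, 15 and 12 counts in WT ones. All psp1-labelled libraries lay above all WT libraries, and the difference was 3.89 ± 0.16 (edgeR exact test, adjusted p = 7.9e-33). In the aerial part PER59 had 0 counts in psp1-labelled and 2 counts in WT libraries. Its neighbour PER58, 1598 bases away and with 60.3% identity, had 21 counts over psp1-labelled and 2 over WT roots and was too low for the test.

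PER24 (AT2G39040; TAIR10.1 chromosome 2, 16299242 to 16301245, minus strand) had 0 counts in the 3 psp1-labelled root libraries and 35, 72 and 61 counts in the WT root libraries. In CPM that is 0 with the psp1 label and 6.32 ± 1.60 in WT. Against the 3 counts over the group that 0 allows, PER24 was at least 31.6-fold lower with the psp1 label (edgeR exact test, adjusted p = 1.6e-15). Of the genes beside it, AT2G39030 was almost without counts, with 1 over psp1-labelled and 1 over WT roots, and the next on each side had counts in all libraries. AT2G39020 had 109, 123 and 136 counts in psp1-labelled and 212, 248 and 278 in WT roots, and AT2G39050 had 67, 74 and 74 in psp1-labelled and 108, 102 and 93 in WT roots. PER24 had 0 counts in all 6 aerial libraries.

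PER22 and PER23, the pair shown above, moved in opposite directions. PER22 stood at 151, 167 and 201 CPM in psp1-labelled roots and at 67, 76.8 and 54.5 CPM in WT roots, with no overlap between the groups. It was higher by 1.28 ± 0.18 (edgeR exact test, adjusted p = 7.72e-13). PER23 stood at 40.7, 51.6 and 47.8 CPM in psp1-labelled roots and at 56.8, 97.6 and 63.7 CPM in WT roots, also without overlap. It was lower with the psp1 label, at -0.75 ± 0.24 (edgeR exact test, adjusted p = 0.00177), a call lost without WT root 2 (adjusted p = 0.0427), without psp1 root 1 (0.0297), with library totals (0.0107) and in the quasi-likelihood test (0.0107). When the counts of both were summed, the pair was higher by 0.55 (adjusted p = 0.006).

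**Figure D3:**
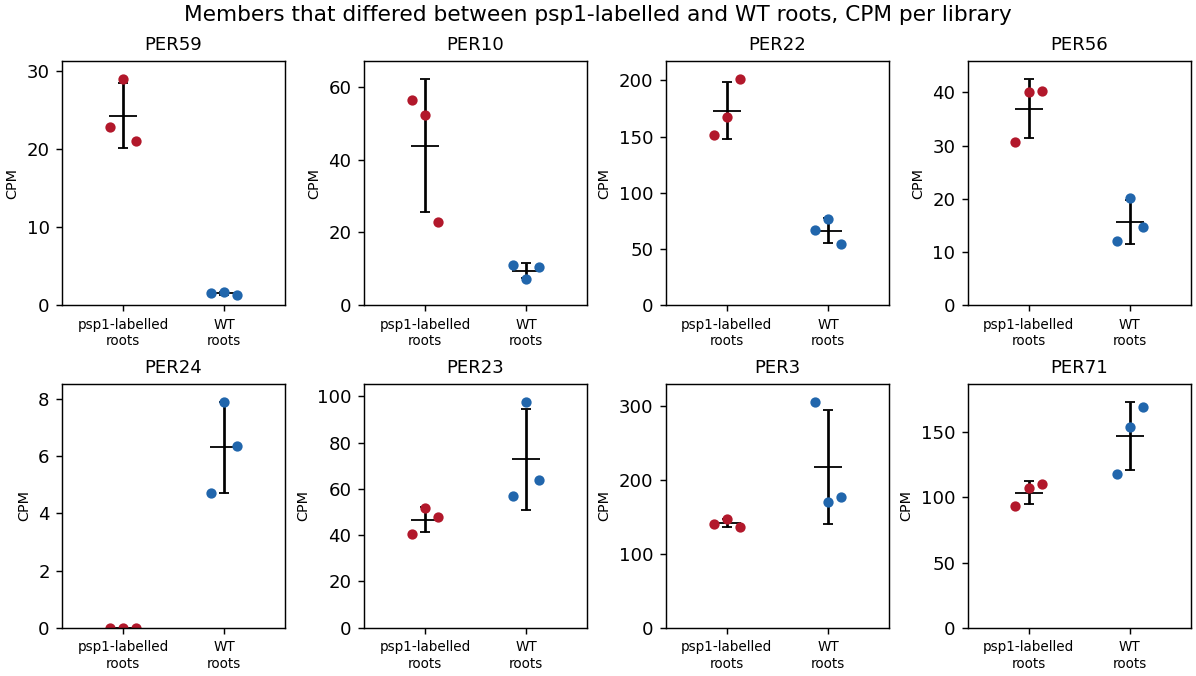
CPM in each root library for 8 members, psp1-labelled in red and WT in blue, with the mean as a dash and bars of ± 1 SD (n = 3). PER59, PER10, PER22 and PER56 lie higher in all psp1-labelled libraries, and PER24, PER23, PER3 and PER71 lie lower, with PER24 at 0.

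Other members called higher in roots included PER10, PER32, PER56, PER34 and PER70. PER10 (AT1G49570) had 56.4, 52.4 and 22.9 CPM with the psp1 label and 11, 7.12 and 10.4 CPM in WT, a difference of 2.09 ± 0.45 (edgeR exact test, adjusted p = 1.05e-09). Psp1-labelled library 3 lay far under the other two but above all WT libraries. PER32 (AT3G32980), the second highest member of psp1-labelled roots, had 706, 723 and 505 CPM there and 305, 368 and 264 CPM in WT roots. Its groups did not overlap, and it was higher by 0.94 ± 0.20 (edgeR exact test, adjusted p = 6.64e-07). PER56 (AT5G15180) had 30.6, 40.0 and 40.3 CPM with the psp1 label and 12.1, 20.2 and 14.7 CPM in WT, higher by 1.12 ± 0.24 (edgeR exact test, adjusted p = 8.36e-06). PER70 (AT5G64110) rested on few counts, 17, 14 and 24 with the psp1 label and 0, 4 and 10 in WT (2.72 ± 0.72, edgeR exact test, adjusted p = 0.000211), and the quasi-likelihood test did not call it (adjusted p = 0.0173). PER28 (AT3G03670; 1.90 ± 0.61) and PER38 (AT4G08780; 1.00 ± 0.20) were also called higher, with adjusted p of 0.00176 and 0.000777 in the edgeR exact test. The call of PER28 was lost under 7 of 14 alternatives and that of PER38 under 3 of 15, with a highest adjusted p of 0.0294 for PER28. That of PER38 was 0.626, reached when PER37 and PER38 were summed. Of the coding bases of PER38, 55 lie within the annotated span of the gene AT4G08790 on the opposite strand, introns included. The counting did not use strand.

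Root hairs are outgrowths of epidermal cells, and their tips grow by loosening and cross-linking the wall. PER1, PER44 and PER73 act in root hair growth, PER62 and PER69 in root hair growth at low temperature, and PER60 (RHS18) and PER73 (RHS19) belong to a set of genes expressed in root hair cells. Of 10 listed members 9 were tested, 8 were called higher and 0 lower, with a median of 1.38. That is 88.9% called higher, against 8.72% of all genes tested in roots. PER35, PER60 and PER73 had only 27, 15 and 14 counts over WT roots. They and PER7 would not have passed the filter on low counts by WT roots alone, so their direction was partly set by that filter. With PER1 and PER2 as 1 measurement 7 of 8 were called higher, and the quasi-likelihood test called 3 of those 8, PER1, PER62 and PER73. The summed level of the list was 611 to 899.7 TPM in psp1-labelled and 581.3 to 726.9 TPM in WT roots, since PER69 made up most of it and did not differ.

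PER73 (AT5G67400) had 4.77, 3.66 and 3.82 CPM in psp1-labelled roots and 0.403, 0.438 and 0.73 CPM in WT roots. The groups were well apart, at 2.80 ± 0.22 (edgeR exact test, adjusted p = 1.85e-06), though on 62 and 14 counts over the psp1-labelled and WT groups. PER1, which also stands for PER2, had 15.2, 14.5 and 11.5 CPM with the psp1 label and 5.78, 4.22 and 4.90 CPM in WT, higher by 1.38 ± 0.18 (edgeR exact test, adjusted p = 2.6e-05). PER62 (AT5G39580) had 21.5, 27.2 and 23.6 CPM with the psp1 label and 9.13, 12.5 and 13.6 CPM in WT, higher by 0.92 ± 0.19 (edgeR exact test, adjusted p = 0.000544). PER62 lost its call without WT root 1 (adjusted p = 0.0129).

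PER60 (AT5G22410) had 2.04, 3.86 and 5.49 CPM in psp1-labelled roots and 0, 1.42 and 0.209 CPM in WT roots (2.62 ± 0.85, edgeR exact test, adjusted p = 0.00404). PER35 (AT3G49960) had 6.30, 6.10 and 2.15 CPM with the psp1 label and 0.403, 1.21 and 1.36 CPM in WT (2.15 ± 0.61, adjusted p = 0.000909). PER7 (AT1G30870) had 10.6, 11.2 and 5.96 CPM with the psp1 label and 4.97, 2.63 and 1.25 CPM in WT (1.56 ± 0.58, adjusted p = 0.00525). In all 3 the groups did not overlap, but the gap was small beside the spread: the quasi-likelihood test called none of them (adjusted p = 0.0338, 0.0151 and 0.0224), and leaving out single libraries also lost each call, up to 0.0568 for PER60 without WT root 3, 0.028 for PER35 without psp1 root 1 and 0.0515 for PER7 without psp1 root 1.

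PER44 (AT4G26010; TAIR10.1 chromosome 4, 13200414 to 13202164, plus strand) had 19.4, 34.1 and 13.4 CPM with the psp1 label and 11.3, 6.58 and 8.24 CPM in WT (1.25 ± 0.44, edgeR exact test, adjusted p = 0.00159). Of its coding bases, 732 lie within the annotated span of the gene AT4G26020 on the opposite strand, introns included. Yet 99.9% of its words occur in no other coding sequence on either strand. The counting did not use strand, and whether reads of AT4G26020 from outside its coding sequence fell on PER44 was not tested. Its call was lost in the quasi-likelihood test (adjusted p = 0.0118) and without psp1 root 2 (0.0499). PER69 (AT5G64100) had 723, 424 and 560 CPM with the psp1 label and 669, 555 and 528 CPM in WT; the groups overlapped and the difference was -0.14 ± 0.26 (adjusted p = 0.635). PER8 had 10 counts over psp1-labelled and 1 over WT roots and was not tested.

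**Figure D4:**
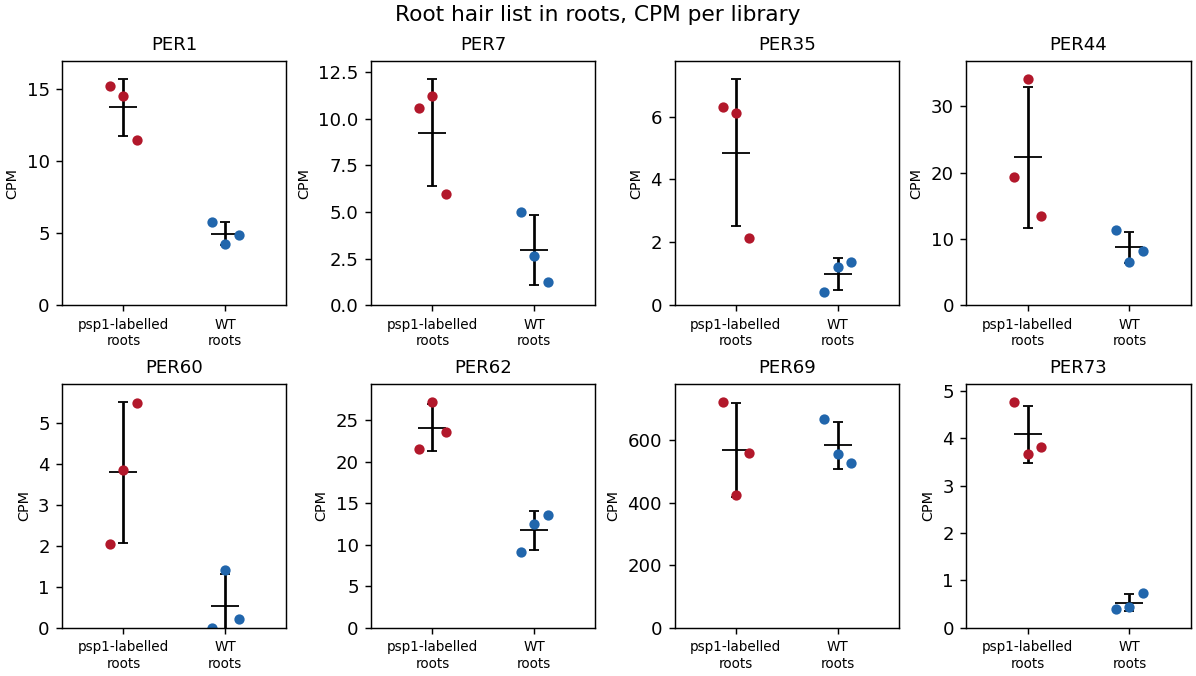
CPM in each root library for 8 members of the root hair list, psp1-labelled in red and WT in blue, with the mean as a dash and bars of ± 1 SD (n = 3; the bar of PER60 in WT is cut at 0). PER1 stands for PER2 as well, and PER69 is the member whose groups overlap.

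The marker genes of root hair cells were read in the same libraries. Their summed level, over 5 genes, was 15.3 to 22.59 TPM in psp1-labelled and 4.085 to 5.453 TPM in WT roots, and none was at 0 in either group. The wall proteins LRX1 and PRP3 were called higher (2.24 ± 0.28 and 2.28 ± 0.32, adjusted p = 8.43e-08 and 0.000254 in the edgeR exact test). The call of PRP3 was lost in the quasi-likelihood test (adjusted p = 0.0109) and without psp1 root 1 (0.0113). EXPA7, an expansin, and COW1 differed by 1.29 ± 0.25 and 1.21 ± 0.44 and were not called (adjusted p = 0.0548 and 0.0255), and EXPA18 was too low for the test. The part of a change in the number of root hair cells in the PER values was not tested. GL2, which represses hair fate in the other epidermal cells, was lower with the psp1 label, at 12.3, 7.32 and 8.11 CPM in psp1-labelled and 22.8, 14.7 and 22.4 CPM in WT roots (-1.21 ± 0.31, edgeR exact test, adjusted p = 0.000203). Of the 7 listed regulators of PER genes 4 were tested, with 0 called higher and GL2 alone lower. On these 4 genes that is 25.0% lower, against 9.1% of all genes tested in roots. RHD6, which starts root hair formation, differed by -0.99 ± 0.66 (adjusted p = 0.248).

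The root hair element (RHE) is a promoter motif bound by the RHD6 and RSL family of factors. It was searched on both strands in windows of 300 bases, from 250 before to 50 after each gene start in RefSeq TAIR10.1. It was found in 3 of 60 members, PER20, PER27 and PER60, which is 5.0%, against 0.867% of 27443 protein-coding genes. In the root hair list 1 of 10 members held it. The G-box CACGTG was found in 0 of 60 members and in 7.68% of all genes. The 150 bases before the gene start of PER60, called higher, and of PER20, called lower, are shown 5′ to 3′ with the RHE match in capitals, both on the plus strand.

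PER60, chr5:7426160-7426309: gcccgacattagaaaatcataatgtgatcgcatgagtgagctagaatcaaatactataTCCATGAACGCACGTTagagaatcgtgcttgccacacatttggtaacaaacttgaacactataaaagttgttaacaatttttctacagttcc

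PER20, chr2:14892345-14892494: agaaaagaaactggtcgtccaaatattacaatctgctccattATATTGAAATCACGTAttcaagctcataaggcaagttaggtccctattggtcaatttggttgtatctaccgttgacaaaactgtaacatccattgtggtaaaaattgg

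The match began 92 bases before the gene start in PER60 and 108 bases before it in PER20. Both carry the match on the strand of the gene, while PER60 and PER20 were called in opposite directions. PER20 (AT2G35380) had 63.0, 75.8 and 93.5 CPM in psp1-labelled and 102, 96.7 and 111 CPM in WT roots (-0.53 ± 0.18, edgeR exact test, adjusted p = 0.00928), and 9 of 14 alternatives lost its call (adjusted p up to 0.0977, without psp1 root 1). PER27, with its match on the strand opposite the gene, 246 bases before the start, differed by -0.39 ± 0.23 and was not called (adjusted p = 0.11).

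Endodermal members make the lignin of the Casparian strip, the wall barrier around the root's vascular tissue. All 4 listed members were tested, with PER39 and PER72 called higher, PER3 called lower and PER9 not called. PER39 (AT4G11290) had 32.7, 52.0 and 34.8 CPM in psp1-labelled and 11.6, 24.0 and 20.0 CPM in WT roots (0.99 ± 0.36, edgeR exact test, adjusted p = 0.00138). PER72 (AT5G66390) had 53.3, 40.0 and 64.2 CPM with the psp1 label and 29.5, 34.5 and 30.1 CPM in WT (0.63 ± 0.22, edgeR exact test, adjusted p = 0.00857). PER3 (AT1G05260, RCI3), also known as cold-inducible, had 141, 147 and 137 CPM with the psp1 label and 306, 170 and 177 CPM in WT (-0.73 ± 0.28, edgeR exact test, adjusted p = 0.00254). Among WT libraries the first stood apart for PER3, and without it the call was lost (adjusted p = 0.0345). PER9 (AT1G44970) had 6.81, 7.32 and 6.92 CPM with the psp1 label and 1.75, 4.06 and 3.13 CPM in WT (1.11 ± 0.32, adjusted p = 0.0165). The call of PER72 was lost under 9 of 14 alternatives (adjusted p up to 0.0574, without WT root 1), and that of PER39 under 4 (up to 0.0292, without psp1 root 2).

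The 6 endodermis markers summed to 141.5 to 161.5 TPM in psp1-labelled and 102.1 to 110.6 TPM in WT roots, and 1 was at 0 in psp1-labelled roots. ESB1, a dirigent protein of the Casparian strip, was called higher (0.69 ± 0.14, edgeR exact test, adjusted p = 8.58e-05). The other 4 tested, the strip scaffold proteins CASP1 to CASP4, were not called, with CASP1 at 0.00 ± 0.12. MYB36, the factor that switches on the strip genes, differed by 0.74 ± 0.32 (adjusted p = 0.0483) and was not called.

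Members that act in vascular and stem lignin went both ways in roots. Of 9 tested, PER2, PER25, PER66 and PER72 were called higher and PER71 lower, with a median of 0.07. These are 44.4% and 11.1%, against 8.72% and 9.1% of all genes tested in roots. PER66 (AT5G51890), of lignifying tracheary elements, had 26.4, 26.8 and 24.3 CPM in psp1-labelled and 10.5, 16.6 and 14.8 CPM in WT roots (0.78 ± 0.19, edgeR exact test, adjusted p = 0.00299). PER25 (AT2G41480) had 63.2, 87.2 and 87.6 CPM with the psp1 label and 38.4, 60.9 and 44.4 CPM in WT (0.61 ± 0.24, edgeR exact test, adjusted p = 0.00879). PER71 (AT5G64120) had 93.3, 107 and 110 CPM with the psp1 label and 118, 154 and 169 CPM in WT (-0.62 ± 0.17, edgeR exact test, adjusted p = 0.000855). Groups of these 3 did not overlap, yet leaving out WT root 1 ended the calls of PER66 (adjusted p = 0.0417) and PER25 (0.0938), and leaving out WT root 3 that of PER71 (0.0213). Of 14 alternatives, 7 lost the call of PER66, 9 that of PER25 and 2 that of PER71. For PER66 and PER25 these included DESeq2 (adjusted p = 0.0105 and 0.0128) and the quasi-likelihood test (0.0141 and 0.0241). PER42, PER47, PER4 and PER17 were not called, and PER42 differed by -0.09 ± 0.19 (adjusted p = 0.74). The 5 xylem markers were all tested and none was called, with sums of 273.5 to 315 TPM in psp1-labelled and 240.7 to 319.6 TPM in WT roots.

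Of the defence and oxidative burst list 6 of 8 members were tested in roots, with PER34 and PER62 called higher, PER71 lower and a median of 0.43. These are 33.3% higher and 16.7% lower, against 8.72% and 9.1% of all genes tested in roots. PER34 (AT3G49120, PRXCB), a source of the burst of hydrogen peroxide in defence, had 117, 108 and 102 CPM in psp1-labelled and 59.1, 66.2 and 62.9 CPM in WT roots. The groups were far apart for their spread, at 0.69 ± 0.07 (edgeR exact test, adjusted p = 1.22e-05). PER21, PER4 and PER5 were not called (0.18 ± 0.04, -0.15 ± 0.09 and 1.40 ± 0.45, adjusted p = 0.326, 0.669 and 0.0454). PER33 (PRXCA) and PER53 were too low for the test.

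PER39 and PER57 are repressed by the factor UPB1 where root cells stop dividing and start to elongate. PER57 (AT5G17820) had 30.5, 31.9 and 51.5 CPM in psp1-labelled and 22.2, 24.2 and 20.3 CPM in WT roots, and differed by 0.66 ± 0.26 without a call (adjusted p = 0.0186). UPB1 itself differed by -0.96 ± 0.50 (adjusted p = 0.0791). Of the 26 tested members in no list, 8 were called higher and 3 lower, with a median of 0.09. These are 30.8% and 11.5%, against 8.72% and 9.1% of all genes tested in roots.

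Other enzymes of the same chemistry were read from lists. RBOH NADPH oxidases make the superoxide that turns into the hydrogen peroxide used by peroxidases. Of 8 tested in roots, 3 were called higher and 0 lower, with a median of 0.22. That is 37.5% called higher, on only 8 genes, against 8.72% of all genes tested in roots. RBOHB had 30.3, 35.2 and 33.4 CPM in psp1-labelled and 9.4, 11.4 and 9.59 CPM in WT roots (1.59 ± 0.09, edgeR exact test, adjusted p = 8.94e-13). RBOHG had 41.0, 44.1 and 40.6 CPM with the psp1 label and 12.9, 13.9 and 15.0 CPM in WT (1.47 ± 0.07, adjusted p = 1.47e-13). RBOHD, which acts in defence, was higher by 0.78 ± 0.10 (edgeR exact test, adjusted p = 3.78e-07). RBOHC, the oxidase of root hair tips, differed by -0.04 ± 0.16 and was not called (adjusted p = 0.908). Laccases also polymerise lignin but use oxygen. Of 15 tested, 0 were called higher and LAC2 was called lower (-1.96 ± 0.30, edgeR exact test, adjusted p = 3.72e-07), with a median of -0.27. The share called lower was 6.67%, against 9.1% of all genes tested in roots.

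In the aerial part no member was called between psp1-labelled and WT libraries. With the edgeR exact test 0 of 23 tested members were called in either direction, 7 had an unadjusted p under 0.05, which is 30.4% against 16.6% of all genes tested, and the quasi-likelihood test and DESeq2 also called 0. Among all 15928 genes tested there, 1.53% were called higher and 0.904% lower, 2.43% in all. Over all genes the exact test called 387, the quasi-likelihood test 31 and DESeq2 336. The median was 0.08 over the members and 0.01 over all genes. The biological coefficient of variation was 23.1% among psp1-labelled and 11.3% among WT aerial libraries.

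PER62 came nearest to a call, with 21.5, 19.4 and 21.2 CPM in psp1-labelled and 8.93, 7.69 and 14.0 CPM in WT aerial libraries. The groups did not overlap, and the difference was 0.99 ± 0.25 (edgeR exact test, adjusted p = 0.0108). It was called with library totals and without WT aerial 3, and over the alternatives its adjusted p ran from 0.00356 to 0.197. PER42 had 961, 2000 and 1510 CPM with the psp1 label and 1170, 912 and 1010 CPM in WT (0.50 ± 0.34, adjusted p = 0.281), and was called without psp1 aerial 1 (adjusted p = 0.00184), the library that lay among the WT ones. PER71 (0.65 ± 0.26) and PER31 (-0.66 ± 0.21) were not called, with adjusted p of 0.133 and 0.144.

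The psp1 effect differed between the organs for 1 member of 52 tested, PER22, which was called in the edgeR quasi-likelihood interaction test over 12 libraries. In that test 0.816% of all genes had a called effect higher in roots and 0.869% one lower, 1.68% in all. PER22 had 0.344, 0.266 and 0.276 CPM in psp1-labelled aerial and 1.23, 2.28 and 0.822 CPM in WT aerial libraries. Its values were thus lower with the label there, where it had too few counts for the test of that organ, and higher in roots. The difference of the effects was 3.62 ± 0.42 (adjusted p = 0.00209), but the aerial side rests on 4 counts in psp1-labelled and 36 in WT libraries. Without WT aerial 2 the call was lost (adjusted p = 0.012). PER71, higher with the label in the aerial part and lower in roots, stood at -1.16 ± 0.30 without a call (adjusted p = 0.0146), as did PER32 (1.49 ± 0.48, adjusted p = 0.0159). An unadjusted p under 0.05 was found for 15 members, which is 28.8%, against 19.7% of all genes tested.

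Roots against aerial part, within a genotype, gave the largest differences. In psp1-labelled plants 39 of 48 tested members were called higher in roots and 3 lower (PER12, PER33 and PER67), where 25.2% and 24.5% of 17344 genes were, 49.7% in all. In WT plants 39 of 48 were called higher in roots and 4 lower (the same 3 and PER70), where 33.6% and 30.9% of 18202 genes were, 64.4% in all. The median log2 fold change was 5.86 in psp1-labelled and 4.10 in WT plants, against 0.04 and 0.03 over all genes. Of the 39 in each genotype 36 were shared. Each of these comparisons shares its libraries with the comparisons of genotype above. Library totals shifted the median of all genes to 0.60 in psp1-labelled and 0.54 in WT plants, and the members called lower did not change in number.

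Some root members were barely seen in the aerial part. PER16 and PER57 had 555 and 552 counts over psp1-labelled roots and 0 in the psp1-labelled aerial part, at least 115-fold and 114-fold higher in roots. Bounds of this kind are the lower of those from library totals and from TMM scaling. PER59 and PER38 were at least 74.9-fold and 58.7-fold higher in psp1-labelled roots, also against 0. PER25 had 1167 counts over psp1-labelled roots and 1 over the aerial part. In WT, PER10 and PER24 had 247 and 168 counts over roots and 0 over the aerial part, at least 53.1-fold and 35.5-fold higher. PER69 had 584 ± 75.1 CPM in WT roots and 1.39 ± 0.372 in the WT aerial part (8.20 ± 0.23, edgeR exact test, adjusted p = 6.11e-300). PER27 and PER3 were higher in WT roots by 7.64 ± 0.14 and 7.59 ± 1.01, with adjusted p of 1.02e-157 and 4.93e-88.

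A small group had the opposite pattern. PER67 (AT5G58390) had 0 counts in psp1-labelled roots, 1 in WT roots, 103 in the psp1-labelled and 181 in the WT aerial part. PER67 was at least 39-fold lower in psp1-labelled roots than in the aerial part (edgeR exact test, adjusted p = 3.33e-15). PER33, whose product makes the oxidative burst with that of PER34, had 0.392 ± 0.153 CPM in psp1-labelled roots and 14.2 ± 1.84 CPM in the psp1-labelled aerial part (-5.83 ± 0.19, adjusted p = 5.29e-24). In WT it had 0.823 ± 0.608 CPM in roots and 11.1 ± 2.18 CPM in the aerial part (-4.33 ± 0.55, adjusted p = 5.68e-33). Its neighbour PER34, 4385 bases away with 90.7% identity, was higher in roots, with 109 ± 7.55 CPM in roots and 19.5 ± 7.62 CPM in the aerial part of psp1-labelled plants and 62.7 ± 3.54 and 13.7 ± 2.45 CPM in those of WT. PER34 was called in both, at 1.93 ± 0.32 and 1.69 ± 0.15 (edgeR exact test, adjusted p = 5.24e-12 and 7.01e-26), and the sum of both was higher in roots by 1.15 in psp1-labelled and 0.85 in WT plants. PER12 had 5.17 ± 0.923 CPM in roots and 48.9 ± 10.8 CPM in the aerial part of psp1-labelled plants, and 6.74 ± 1.56 and 44.9 ± 3.58 CPM in those of WT.

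**Figure D5:**
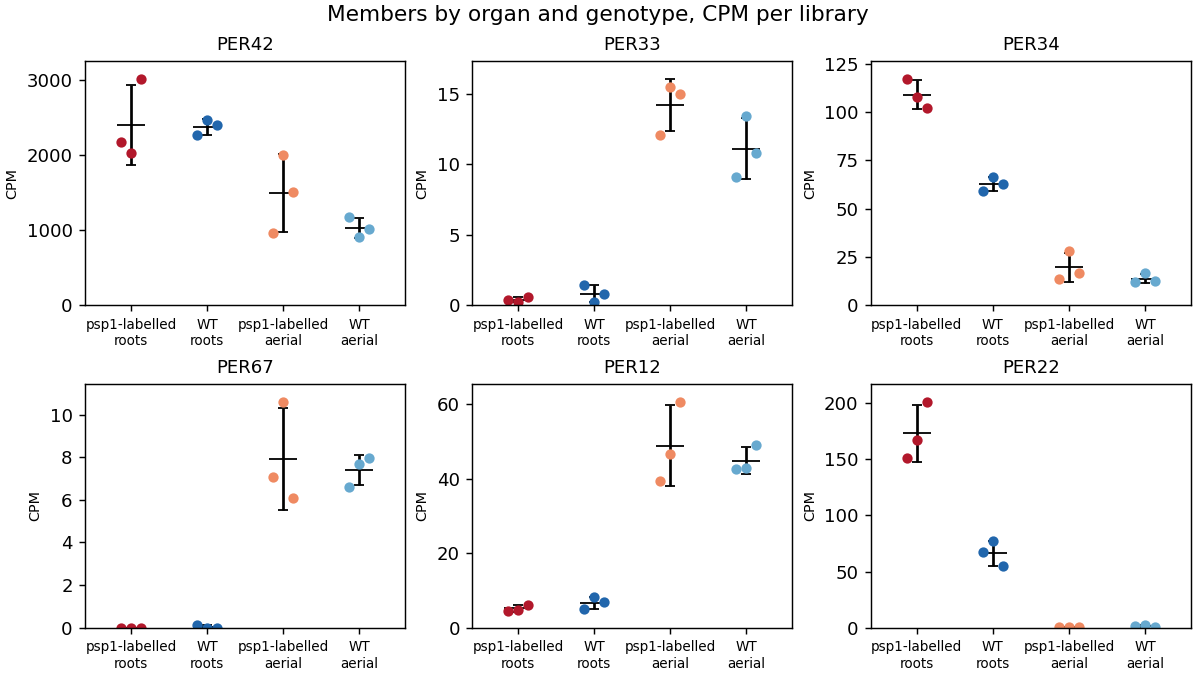
CPM per library of 6 members in the 4 groups, with the mean as a dash and bars of ± 1 SD (n = 3). PER33, PER67 and PER12 lie higher in the aerial part, PER34 and PER22 in roots, and PER42 stands high in both organs with its psp1-labelled aerial libraries between 961 and 2000 CPM.

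PER17, PER31, PER62 and PER66 were not called between organs in either genotype, and PER42 was called in 1 of them. PER42 was called higher in WT roots than in the WT aerial part (0.70 ± 0.11, edgeR exact test, adjusted p = 3.91e-07) but not in psp1-labelled plants (0.12 ± 0.37, adjusted p = 0.717), and the difference of these differences was -0.49 ± 0.38 and was not called (adjusted p = 0.376). PER62 stood at 24.1 ± 2.92 CPM in psp1-labelled roots, 11.7 ± 2.31 CPM in WT roots, 20.7 ± 1.12 CPM in the psp1-labelled aerial part and 10.2 ± 3.32 CPM in the WT aerial part.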

How the data were processed

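RNA-seq libraries (12, in 4 groups of 3) were made from polyadenylated RNA and read as single reads of 75 bases, per the labels' protocols. For quantification the authors ran kallisto 0.43.0 against TAIR10 transcripts (fragment length 200, SD 30) and edgeR in classic mode, other settings at their defaults, per the labels' protocols; the default of kallisto does not use strand. The deposited files give estimated counts and TPM per target, and the deposited target lengths are coding lengths, so reads of untranslated regions alone were not counted. Names follow the standard family numbering; RefSeq gives 11 of these numbers and all 11 were the same.

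Estimated counts were rounded to whole numbers and tested with the exact test of edgeR 4.0.16 (R 4.3.3, TMM factors, dispersion without a design, default filter on low counts), adjusted over all genes tested, with a call at 0.01, as the labels' protocols state. The interaction used the quasi-likelihood test. SE came from the spread of log2 CPM with a prior count of 2. TPM was described and not tested. Alternatives were the quasi-likelihood test, DESeq2 1.42.0, other scalings and filters, equal depth, summed near copies, a replicate block and leaving out each library. The test code was tested on simulated data. Sequences came from RefSeq TAIR10.1.

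Genes named are all members called in roots up to 10 per direction by smallest p, the 10 highest by TPM, members of the role lists, and, between organs, up to 5 per direction with at least 50 mean counts in the higher group; PER28, PER31, PER51, PER58 and PER63 were added after their values were seen. The members and lists were chosen with earlier results of these data known.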

Additional observations from a re-analysis of the deposited data

Results flagged for a closer look

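PER22 was singled out because the psp1 effect differed between organs in a test of the difference itself. It was the 1 call among 52 members tested, which is 1.92%, near the 1.68% of all genes. PER22 had too few counts to be tested in the aerial part alone. The psp1 effect was 1.28 in roots on the log2 scale, and the effect in roots minus that in the aerial part was 3.62 ± 0.42 (edgeR quasi-likelihood interaction, 12 libraries, adjusted p = 0.00209). The psp1-labelled aerial libraries had 4 PER22 counts in all and the WT aerial ones 36, and 0.012 was the adjusted p without WT aerial 2.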

How the results depend on the processing

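In roots, 10 of the 26 called members were called under every alternative run. PER1 and PER2 are 1 measurement among these 10. For PER22, PER34 and PER59 the summed pair, with PER23, PER33 and PER58, stood in for the member in that alternative. Against 21 higher and 5 lower, the quasi-likelihood test called 11 and 2, and with a replicate block 11 and 3. Library totals called 2 lower. The calls over all genes moved too, from 3171 to 2232, 1837 and 3318 in these 3 settings. Leaving out 1 library gave 12 to 18 higher and 1 to 5 lower, with 2161 to 3288 of all genes called. In the aerial part, against 0, library totals called 1 higher, and leaving out 1 library gave 0 to 1. Over all genes 387 were called there, 428 with library totals and 112 to 711 without 1 library. For the interaction, against 1 higher and 0 lower, DESeq2 called 3 and 2 and no filter on low counts 2 and 1. Leaving out 1 library gave 0 to 2 higher and 0 to 1 lower. Over all genes 316 had a called interaction, 822 with DESeq2, 437 with no filter and 136 to 374 without 1 library. Deviations of same-numbered libraries from their group means correlated weakly (-0.07 to 0.15). With 3 libraries per group this cannot decide whether libraries were paired, and only the replicate block used the numbers as pairs.

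Signs turned as follows, and the cause was not tested. Leaving out 1 library gave these ranges in the aerial part: PER12 -0.11 to 0.23, PER15 -0.99 to 0.02, PER37 -1.38 to 0.84 and PER67 -0.22 to 0.19. In roots it gave PER16 -0.41 to 0.15, PER17 -0.03 to 0.20, PER37 -0.08 to 0.50, PER42 -0.30 to 0.03, PER63 -0.29 to 0.52 and PER69 -0.36 to 0.04. Between organs in psp1-labelled plants it gave PER31 -0.16 to 0.29 and PER42 -0.08 to 0.45. With the replicate block the values were -0.19 for PER37 in the aerial part and -0.14 for PER63 in roots. At equal depth they were -0.04 for PER67 in the aerial part, and -0.05 for PER17 and -0.11 for PER63 in roots. Library totals gave PER16 0.04 and PER42 0.01 in roots, PER62 0.22 between organs in psp1-labelled plants, and PER31 0.14, PER62 0.21 and PER66 0.14 between organs in WT. For summed pairs the value is that of the sum, set against 1 member of the pair. It was 0.25 for PER51 in the aerial part. In roots it was 0.55 for PER23, 0.15 for PER51 and -0.14 for PER70. Between organs it was 1.15 for PER33 and 5.77 for PER70 in psp1-labelled plants, and 0.85 and 6.99 in WT. PER70 was summed with PER69, at 69.8% identity and with no word shared. In WT roots PER69 stood at 601 TPM and PER70 at 0.51 TPM, so that sum is mainly PER69. Depth limits the members with few counts, such as PER60, PER70 and PER73.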
